A study of Mus musculus with 6 samples.

Results

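The 8 genes described here encode the receptors of the interleukin-6 (IL-6) cytokine family and the proteins that act below them. They are the receptor subunits Il6st, Il6ra, Osmr and Lifr, the transcription factor Stat3, the feedback inhibitor Socs3 and the C/EBP transcription factors Cebpb and Cebpd. They were chosen by name, with earlier results of these data known. The matrix of mouse single cells had 34203 rows, of which 21136 genes held at least 1 unique molecular identifier (UMI, a tag that marks 1 captured RNA molecule). A row was present for 7 of the 8, and Cebpd was not analysed here.

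The cells came from the subventricular zone (SVZ), the stem cell niche along the lateral ventricle of the adult mouse brain, and the comparison asks how its microglia and its neural stem and progenitor cells (NSPCs) respond to a distant cortical stroke. All mice were adult and carried Nestin-CreERT2:R26-yfp, in which tamoxifen given before the injury switches on YFP in cells that use the Nestin promoter and in their progeny. They were uninjured, or were taken 1 day (PT D1) or 7 days (PT D7) after photothrombotic ischemia (PT), in which light through the skull activates injected Rose Bengal and clots cortical vessels. The SVZ of the injured side was digested with papain, and microglia (CD11b+ CD45low) and YFP+ NSPCs were sorted into wells for mCEL-Seq2, a method that counts 3' ends of RNA. YFP in this line marks cells by the history of the Nestin promoter, so the sorted YFP+ cells hold whatever that promoter had labelled. The NSPC class used below is the authors' label, which they gave after sequencing from clusters and marker genes. Each condition has 2 libraries of 192 wells, and a library holds 1 condition. No source used here states which libraries shared a plate, so plate differences could not be separated from those between conditions. How many mice a library stands for is not given in the sources used here. All p values therefore measure the spread between libraries only, which may be technical.

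Cytokines of this family bind their own receptor subunits (IL6RA for IL-6, OSMR for oncostatin M, LIFR for leukemia inhibitory factor) and signal through the shared subunit gp130, the product of Il6st. Janus kinases bound to gp130 phosphorylate STAT3, which enters the nucleus and activates genes that include Socs3, whose product binds gp130 and the kinases and shuts the signal off. C/EBPβ and C/EBPδ are transcription factors of the acute phase response, first described through their activation by IL-6. In brain injury the pathway is known for reactive gliosis, in which STAT3 is required in astrocytes, and in the SVZ the family is known for acting on stem cells.

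The authors' table assigned 416 of 658 cells to microglia in 5 named clusters. It assigned 222 to NSPCs, namely neuroblasts, type C cells (transit amplifying progenitors) and type B cells in a quiescent and an activated state. The microglial clusters are written here as 0 (homeostatic), 1 (activated), 2 (unknown microglia), 3 (development-associated) and 4 (disease-associated). These names were matched here to the authors' numbers. The 20 cells in neither class, labelled as unknown or ependymal, were left out of the comparisons. A library held 54 to 84 microglia with 294984 to 468186 UMIs, and 15 to 61 NSPCs with 82504 to 497292 UMIs. Markers went with the labels, since 6 microglial markers summed to between 4625 and 12924 CPM (UMIs per 1000000 UMIs of the class) in microglial libraries and to between 202 and 1164 in NSPCs, and 9 NSPC markers summed to between 3340 and 4133 in NSPCs and to between 214 and 656 in microglia. Cell names carried a condition and library prefix and a well number but no barcode sequence, and 164 well numbers held a cell in more than 1 library, 25 of them in all 6. All levels below are in CPM, and a sum over cells cannot tell fewer cells that make an RNA from less RNA per cell.

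In microglia, Socs3, Stat3 and Cebpb rose at PT D1 and were lower again at PT D7, while the receptor genes did not pass the test in either direction. The rise was 7.43-fold for Socs3, 4.20-fold for Stat3 and 2.63-fold for Cebpb. Of the 6 members that passed the filter on low counts, 3 were therefore called higher at PT D1, against 2.72% of the 4846 genes tested in microglia, and 0 were called lower, against 2.97% of them (DESeq2 also called 0 lower, and Il6st alone had a negative change with an unadjusted p under 0.05). Osmr did not pass the filter. Since the members were chosen with earlier results of these data known, a share of members beside that of all genes is no test of the set. Calls are from the quasi-likelihood test of edgeR, fitted on the 6 library sums of a class, with a Benjamini-Hochberg adjusted p under 0.05.

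**Figure D1:**
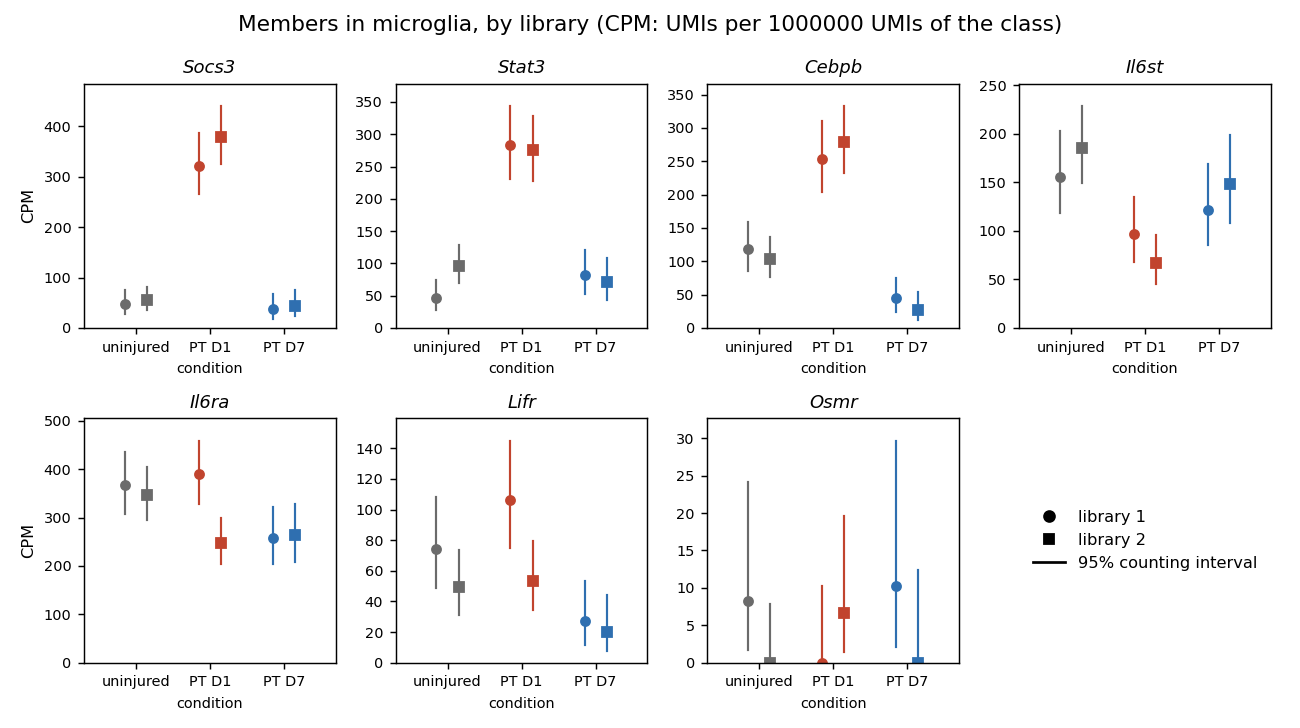
Level of 7 genes in microglia (y axis, CPM, linear from 0, a scale of its own per gene) in each of the 6 libraries, by condition (x axis). Points are libraries and bars the 95% exact Poisson interval, which covers counting error only. Socs3 lay between 322 and 380 at PT D1 and between 37.3 and 55.5 in the other 4 libraries.

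Il6ra, which encodes the subunit that binds IL-6 itself, stood at 368 and 346 CPM in the uninjured libraries, then at 389 and 248 on PT D1 and 258 and 263 on PT D7. The PT D1 libraries lay on both sides of all others. The fitted change at PT D1 was -0.05 log2 units (SE 0.27, edgeR adjusted p = 0.948), and it became 0.23 without library 2 of PT D1 and 0.02 without library 1 of the uninjured mice. At PT D7 the difference from uninjured was -0.24 (SE 0.28, edgeR adjusted p = 0.911).

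Il6st, which encodes the shared subunit gp130, had its lowest levels at PT D1. It stood at 156 and 186 CPM without injury, then at 97.3 and 67.0 on PT D1 and 122 and 148 on PT D7, and the PT D1 libraries did not overlap the others. The difference at PT D1 was -0.94 log2 units (SE 0.29), which missed the threshold with an edgeR adjusted p of 0.0812. It was called in 3 of 17 alternatives, which include cells with at most 10% mitochondrial UMIs (-1.15, edgeR adjusted p = 0.0242). Equal-numbered microglial libraries deviated together, and a fit that blocks on the number (which for the PT D7 libraries was assumed from the last digit of the prefix of their cell names) gave -0.95 with an adjusted p of 0.0251, so that 4 members and 639 in place of 276 genes were called.

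Lifr, which encodes the receptor subunit shared by leukemia inhibitory factor and several relatives, stood at 74.1 and 49.1 CPM without injury, then at 106 and 53.6 on PT D1 and 27.1 and 20.2 on PT D7. Both PT D7 libraries, with 8 and 6 UMIs, lay below the 4 others. The difference between PT D7 and PT D1 was -1.62 log2 units (SE 0.48, edgeR adjusted p = 0.0910), and with the block, which rests on the assumed numbers of the PT D7 libraries, -1.61 (adjusted p = 0.0103). It was called in 4 of 16 alternatives. These include no filter on low counts (-1.61, edgeR adjusted p = 0.0259) and leaving out cluster 3 cells (-1.79, edgeR adjusted p = 0.0198). The change at PT D1, 0.48 (SE 0.39, edgeR adjusted p = 0.529), turned to -0.09 without library 1 of PT D1.

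Osmr, which encodes the oncostatin M receptor subunit, was at or under the limit of detection in microglia. It had 3 and 0 UMIs without injury, 0 and 3 on PT D1 and 3 and 0 on PT D7. A count of 0 in these libraries allows up to 6.41 to 10.1 CPM, taking 3 UMIs as the limit, so no difference between conditions was detectable at this depth.

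Stat3, the transcription factor that gp130 activates, rose at PT D1. It stood at 46.7 and 96.1 CPM without injury, then at 284 and 275 on PT D1 and 81.4 and 70.9 on PT D7. The PT D1 libraries were nearly equal and far above the rest, while the uninjured libraries were the most unlike each other. The rise was 2.07 log2 units (SE 0.32, edgeR adjusted p = 0.00402), and without library 1 of the uninjured mice it was 1.67 with an adjusted p of 0.103.

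Socs3, the feedback inhibitor and a direct target of STAT3, had the largest change among the members. It stood at 46.7 and 55.5 CPM without injury, then at 322 and 380 on PT D1 and 37.3 and 43.9 on PT D7. The difference at PT D1 was 2.89 log2 units (SE 0.27, edgeR adjusted p = 4.8e-04), and it kept its direction and its call in all 17 alternative fits, from 2.75 to 3.03. The rise was spread over the cells, since 106 of 147 PT D1 microglia held at least 1 UMI of Socs3 and the highest cell held 11 of the 286 UMIs. The share of microglia with a UMI was 72.1% at PT D1, against 21.9% without injury and 17.5% at PT D7, at median depths of 5051, 5247 and 4501.5 UMIs per cell. With each cell thinned to 1000 UMIs the shares were 23.8%, 9.68% and 2.63%. No cell type of these libraries is known to lack Socs3, and in neuroblasts, where it was lowest, the level was 17.4 CPM over all conditions.

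The promoter of Socs3 is shown because this gene had the largest change and is a known STAT3 target. The 250 bases before its start site (RefSeq, from a table of the GRCm38.p6 assembly, found without change on the minus strand of GRCm39 at chr11:117860193-117860442) hold 1 match to the STAT motif TTCNNNGAA, in capitals, at bases 154 to 146 before the start. The GENCODE gene spans chr11:117856905-117860898 on the same strand. These bases therefore lie inside the GENCODE gene and not before its 5' end, and the positions count from the RefSeq start only.
Socs3 promoter: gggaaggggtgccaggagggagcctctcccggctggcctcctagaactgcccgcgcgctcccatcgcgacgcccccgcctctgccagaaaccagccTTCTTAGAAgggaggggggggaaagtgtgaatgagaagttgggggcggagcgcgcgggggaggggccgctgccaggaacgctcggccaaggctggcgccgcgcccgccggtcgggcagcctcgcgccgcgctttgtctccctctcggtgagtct
This motif reads the same on both strands and was in 8.30% of the 32851 promoter windows of 300 bases (250 before and 50 after the start). Windows were found for 7 members, 8 windows in all, and Socs3 was the 1 member whose window held it. The C/EBP motif TTGCNNAA, searched on both strands as TTGCNNAA or TTNNGCAA, was in 10.8% of all windows and in 0 of the members' windows, which says only that these letters are not there. A match is a string of letters and not a measured binding site.

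Cebpb, which encodes C/EBPβ, rose at PT D1 and was lowest at PT D7. It stood at 118 and 103 CPM without injury, then at 253 and 279 on PT D1 and 44.1 and 27.0 on PT D7, and the 3 conditions did not overlap. The rise was 1.39 log2 units (SE 0.29, edgeR adjusted p = 0.0181). The call was lost in DESeq2 (1.38, adjusted p = 0.0752) and without library 1 (1.51, adjusted p = 0.158) or library 2 (1.23, adjusted p = 0.236) of the uninjured mice.

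No member was called between PT D7 and uninjured microglia, where 0.165% of the genes tested were called in either direction by the same edgeR test. DESeq2 called 0 members too, and at an unadjusted p under 0.05 edgeR counted 2 members, Cebpb and Lifr. The difference of Cebpb was -1.40 log2 units (SE 0.35, edgeR adjusted p = 0.293) and lay between -1.91 and -1.01 in its alternatives, with adjusted p from 0.0625 to 0.996. That of Lifr was -1.14 (SE 0.50, edgeR adjusted p = 0.662). Socs3 differed by -0.12 (SE 0.33, edgeR adjusted p = 0.963) and Stat3 by 0.30 (SE 0.36, edgeR adjusted p = 0.914). In CPM without the library scaling of the fit (TMM), both PT D7 libraries lay below the uninjured ones for Socs3 and between them for Stat3. With that scaling this order was lost. Socs3 then stood at 45.9 and 48.2 at PT D7 against 48.1 and 54.0 without injury, and Stat3 at 100 and 77.9 against 48.1 and 93.4.

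Between PT D1 and PT D7, Socs3, Stat3 and Cebpb fell in microglia. These are 3 of the 6 members tested, against 2.10% of the genes tested, and 0 members rose, against 1.69% of them (0 in DESeq2, and Il6st alone at an unadjusted p under 0.05). Socs3 fell by 3.01 log2 units (SE 0.29, edgeR adjusted p = 5.0e-04). Cebpb fell by 2.79 (SE 0.34, edgeR adjusted p = 0.00128) and Stat3 fell by 1.77 (SE 0.33, edgeR adjusted p = 0.0132). Without library 1 or library 2 of PT D7 the adjusted p of Stat3 was 0.0999 and 0.113. Il6st differed by 0.82 in the other direction (SE 0.30, edgeR adjusted p = 0.161) and Il6ra by -0.19 (SE 0.28, edgeR adjusted p = 0.772). This comparison shares the PT D1 libraries with the one above, so the fall of a gene that had risen is no separate evidence.

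**Figure D2:**
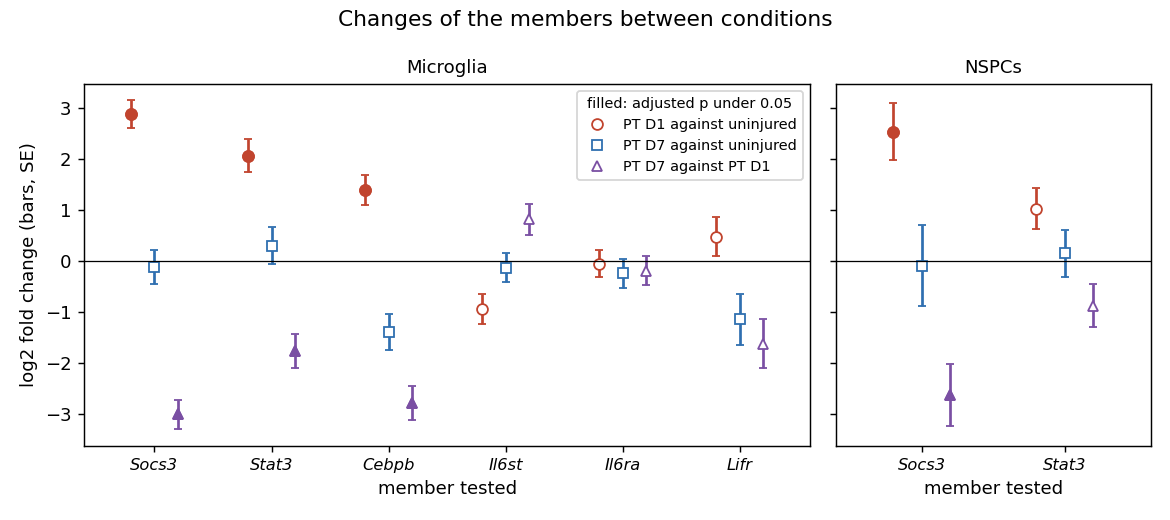
Fitted log2 fold changes (y axis) of the members tested (x axis) in microglia, left, and NSPCs, right, for the 3 comparisons of conditions. Bars are standard errors and filled symbols have an edgeR adjusted p under 0.05, which Socs3, Stat3 and Cebpb reached in microglia and Socs3 in NSPCs, each at PT D1 against uninjured and at PT D7 against PT D1.

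Other genes of the pathway were read from fixed lists. Of 25 genes that reviews name as STAT3 targets, 16 were tested in microglia and 5 rose at PT D1, led by Il4ra, a receptor of interleukin 4 (2.21 log2 units), Bcl2l1, which protects from apoptosis (1.88), and Icam1, an adhesion molecule (1.32). Over all genes tested, 2.72% were called higher. The list's median was 1.24, beside 0.04 over all genes tested, and DESeq2 called 2 of its genes. Genes can pass the filter on low counts through PT D1 alone. Counts and medians of the gene lists in microglia, at PT D1 and after it, are not free of that selection. At PT D7 against PT D1, 3 of the 16 fell, Il4ra (-2.32), Fos (-2.26) and Mcl1 (-1.48), with a list median of -1.11 beside -0.01. There 2.10% of all genes tested were called lower, and DESeq2 called 3 of the list. At PT D7 against uninjured 0 of the 16 were called (0 in DESeq2, 2 at an unadjusted p under 0.05), where the list median was -0.04 beside -0.01.

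The kinases, other STATs and other inhibitors gave no call at PT D1 in microglia. Of 10 kinases and STATs, 3 were tested and 0 called at PT D1 by edgeR or DESeq2, with 1 at an unadjusted p under 0.05 (median 0.59). Of 12 other inhibitors and phosphatases 6 were tested and 0 called by either tool or at an unadjusted p under 0.05 (median 0.00). Of the other C/EBP genes, 3 of 5 were tested and 0 called at PT D1 by edgeR or DESeq2, with 2 at an unadjusted p under 0.05 (median -0.87). In all 3 lists, edgeR and DESeq2 called 0 genes at PT D7 against uninjured, and 1 had an unadjusted p under 0.05.

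Ligands of the family were sparse in microglia. Of 11 ligand genes 2 were tested and 0 called in any comparison by edgeR, DESeq2 or an unadjusted p under 0.05, and of the 4 other receptor genes none passed the filter. Il6 itself had 4 UMIs in all, 2 in each uninjured library. Osm, which encodes oncostatin M, had 3 and 3 UMIs without injury, 10 and 10 on PT D1 and 3 and 4 on PT D7, or 8.24 and 6.41, 27.8 and 22.3, and 10.2 and 13.5 CPM, and 0 UMIs in NSPCs. The PT D1 libraries were thus above the 4 others, in counts too low for the filter.

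Several other measures were read by condition in microglia, and their part in the results was not tested. Immediate early genes are also induced by warm enzymatic digestion. Of the 14 tested, 4 rose at PT D1, led by Ier3 (3.30 log2 units), Dusp1 (2.81) and Ier2 (1.94), with a list median of 0.99. Over all genes tested 2.72% were called higher, with a median of 0.04, and DESeq2 called 3 of the list. At PT D7 against PT D1, 5 of the 14 fell (median -1.03, 4 called by DESeq2), where 2.10% of all genes tested were called lower. At PT D7 against uninjured 0 were called by edgeR or DESeq2 and 2 had an unadjusted p under 0.05 (median -0.09). The 6 microglial markers summed to between 12847 and 12924 CPM without injury, to 4625 and 6753 on PT D1 and to 9341 and 9550 on PT D7. Markers of ependymal and choroid plexus cells, mostly Ttr, summed to between 4641 and 10451 in uninjured microglia, 458 and 595 on PT D1 and 202 and 610 on PT D7. Monocyte and neutrophil markers summed to between 11.0 and 23.5 without injury, 5.56 and 78.2 on PT D1 and 6.75 and 27.1 on PT D7, with Ly6c2, Ly6g and Retnlg at 0 in every library. Most of the sum of 78.2 in library 2 of PT D1 came from Plac8, a gene of monocytes and other leukocytes, with 30 UMIs (67.0 CPM) against 0 to 17.1 CPM in the other libraries. Markers of border macrophages summed to 100 and 126 without injury, to between 15.6 and 22.2 at PT D1 and to between 6.75 and 67.8 at PT D7. Median mitochondrial shares were 7.32%, 7.74% and 6.60% in the order uninjured, PT D1 and PT D7.

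In NSPCs, Socs3 rose at PT D1 and was lower again at PT D7, while Stat3 was higher at PT D1 without passing the test. These 2 genes alone passed the filter on low counts in this class, so 1 of 2 members tested was called higher at PT D1, against 1.04% of 4907 genes, and 0 lower, against 1.08%. Without library 2 of PT D1, Socs3 did not pass the filter, so its place among the genes tested rests on its PT D1 level. The count of 1 in 2 is therefore no evidence of a rise beyond the call itself. The call of Socs3 was kept neither without quiescent type B cells nor in these cells alone.

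Socs3 stood at 17.2 and 18.1 CPM in the uninjured NSPC libraries, then at 55.7 and 148 on PT D1 and 48.5 and 10.1 on PT D7. Library 1 had 2, 8 and 4 UMIs behind these levels and library 2 had 9, 50 and 4. The PT D1 libraries were above the others but unlike each other, and library 1 of PT D7 came close to library 1 of PT D1. The rise was 2.54 log2 units (SE 0.56, edgeR adjusted p = 0.0142), with 2.65 and an adjusted p of 0.140 without library 2 of the uninjured mice.

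Stat3 stood at 34.4 and 48.3 CPM without injury, then at 97.4 and 97.7 on PT D1 and 24.2 and 60.7 on PT D7. The PT D1 libraries were the highest, and the difference from uninjured was 1.03 log2 units (SE 0.41, edgeR adjusted p = 0.220).

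At PT D7 against uninjured, 0 of the 2 members were called in NSPCs by edgeR, DESeq2 or an unadjusted p under 0.05, beside 0.0815% of all genes tested. Socs3 differed by -0.09 log2 units (SE 0.79, edgeR adjusted p = 0.996) and Stat3 by 0.15 (SE 0.46, edgeR adjusted p = 0.995). At PT D7 against PT D1, Socs3 fell by 2.63 (SE 0.61, edgeR adjusted p = 0.0412), which is 1 of 2 members against 0.408% of genes called lower, while 0 were called higher, against 0.224%. Here too Socs3 was among the genes tested through its PT D1 level. That call was lost in DESeq2 (-2.21, adjusted p = 0.999), with the 2 conditions fitted alone (-2.63, adjusted p = 0.0738) and without library 2 of PT D7 (-1.28, adjusted p = 0.555). Stat3 differed by -0.88 (SE 0.42, edgeR adjusted p = 0.452).

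**Figure D3:**
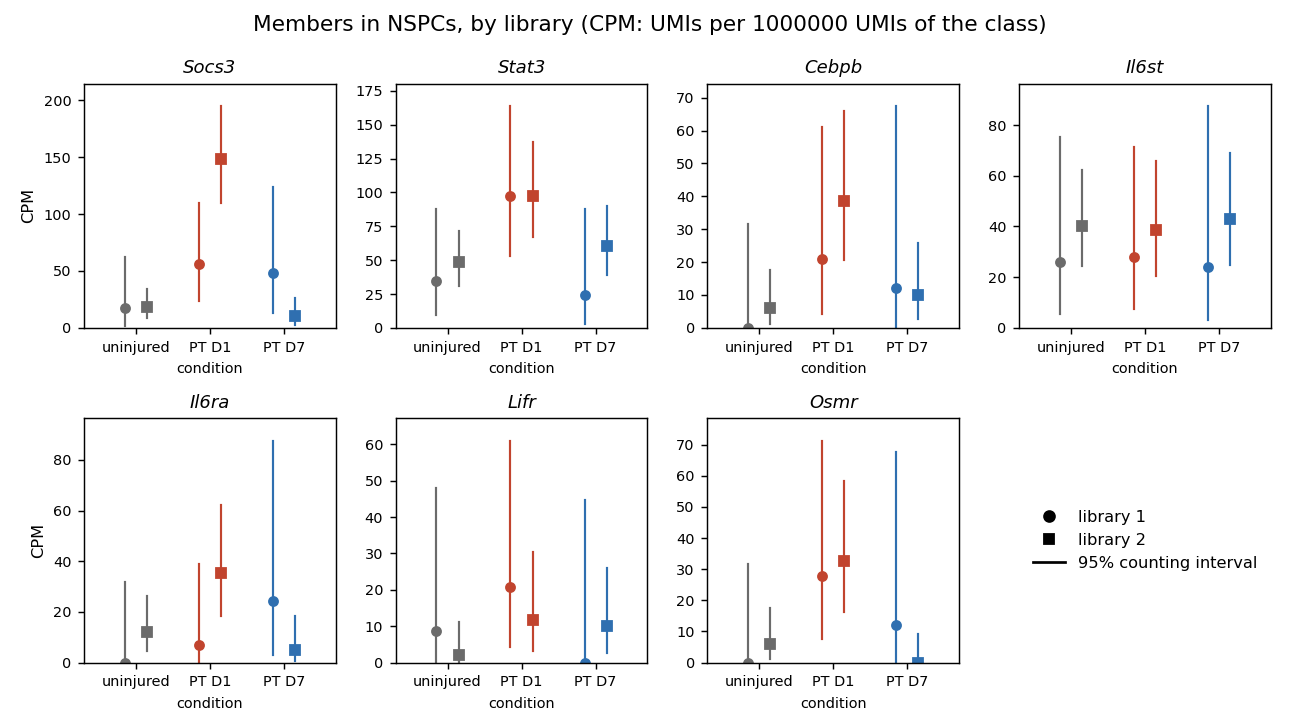
Level of 7 genes in NSPCs (y axis, CPM, linear from 0, a scale of its own per gene) in each of the 6 libraries, by condition (x axis), with 95% exact Poisson intervals for counting error. Library 1 of each condition holds 15 to 19 cells and has the wider bars. Socs3, Stat3, Cebpb and Osmr were highest in the PT D1 libraries, and Il6st lay between 24.2 and 43.0 in all 6.

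The other members were sparse in NSPCs and are given as values. Osmr stood at 0 and 6.03 CPM without injury (0 and 3 UMIs), then at 27.8 and 32.6 on PT D1 (4 and 11 UMIs) and 12.1 and 0 on PT D7 (1 and 0 UMIs). Cebpb stood at 0 and 6.03 without injury, then at 20.9 and 38.5 on PT D1 and 12.1 and 10.1 on PT D7. Both genes were thus higher in the PT D1 libraries than in the 4 others, on 15 and 16 UMIs in all at PT D1. With no filter on low counts the PT D1 difference was 2.54 log2 units for Osmr (SE 0.95, edgeR adjusted p = 0.303) and 2.60 for Cebpb (SE 0.91, edgeR adjusted p = 0.231).

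Il6st stood at 25.8 and 40.2 CPM without injury, then at 27.8 and 38.5 on PT D1 and 24.2 and 43.0 on PT D7, so its conditions overlapped. Il6ra had 0 and 6 UMIs without injury, 1 and 12 on PT D1 and 2 and 2 on PT D7, or between 0 and 35.5 CPM. Lifr had 1 and 1, 3 and 4, and 0 and 4 UMIs in the same order. Il6ra was therefore at 248 to 389 CPM in the microglial libraries and at 0 to 35.5 in NSPCs, without overlap. The microglial markers, which NSPCs should lack, were at 202 to 1164 in NSPCs against 4625 to 12924 in microglia, so a low level of Il6ra in NSPCs cannot be read as expression there. The share of cells with an Il6ra UMI was 61.7% to 80.3% in microglial libraries and 0% to 15.4% in NSPC libraries, at median depths of 4854.5 and 6449 UMIs per cell in the classes.

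**Figure D4:**
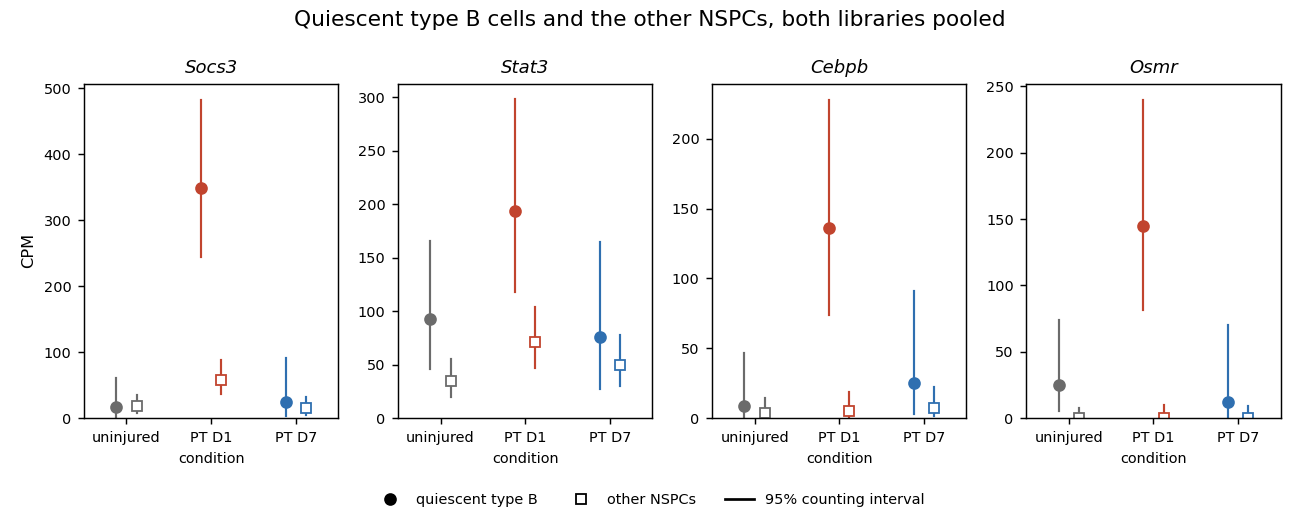
Level of 4 genes (y axis, CPM, linear from 0, a scale of its own per gene) in quiescent type B cells (filled circles) and in all other NSPCs (open squares), by condition (x axis), with the cells of both libraries summed and 95% exact Poisson intervals for counting error. At PT D1 the quiescent cells stood at 349 for Socs3 and 145 for Osmr, and the other NSPCs at 58.2 and 0.

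Quiescent type B cells, the astrocyte-like stem cells of the niche, held 36 of the 58 Socs3 UMIs of NSPCs at PT D1. Over 17 uninjured, 18 PT D1 and 15 PT D7 cells, Socs3 stood at 16.9, 349 and 25.2 CPM, Cebpb at 8.43, 136 and 25.2 and Osmr at 25.3, 145 and 12.6. Stat3 stood at 92.8, 194 and 75.6 and Il6st at 110, 87.2 and 164. Counting intervals at PT D1 lay above those of the uninjured cells for Socs3, Cebpb and Osmr, and overlapped for Stat3. They pool the cells of both libraries, so they do not measure the spread between libraries. How many of all genes separate in this way was not computed. With cells thinned to 2000 UMIs, Osmr at PT D1 was 62.5, inside the uninjured interval (5.22 to 73.9), against 0 in thinned uninjured cells. With 1000 UMIs per cell, Osmr was 167 at PT D1, from 3 of 18 cells, against 0 in uninjured cells. Its 3 uninjured UMIs came from 1 cell. In the other NSPCs Socs3 was at 58.2 at PT D1, against 18.2 without injury and 15.0 at PT D7.

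The 2 libraries did not weigh equally in this. Socs3 in quiescent cells stood at 0 (3 cells) and 19.2 (14 cells) CPM without injury, then at 41.8 (4 cells) and 441 (14 cells) on PT D1 and 40.3 (4 cells) and 18.3 (11 cells) on PT D7. Library 2 of PT D1 held 35 of the 36 Socs3 UMIs at PT D1, and 2 of its cells, with 14 and 8 UMIs, held 61.1% of them, while 9 of 18 cells held at least 1. Osmr was less concentrated, with 15 UMIs in 10 of 18 cells, 4 from library 1 (167 CPM) and 11 from library 2 (139). Cebpb stood at 0 and 9.60 without injury, then at 83.5 and 151 on PT D1 and 0 and 36.7 on PT D7. The 6 microglial markers summed to 26 UMIs in these 18 cells, at most 4 in a cell.

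Fits chosen after the data had been seen give the NSPC change without and within these cells. Without quiescent type B cells the PT D1 difference of Socs3 was 1.54 log2 units (SE 0.82, edgeR adjusted p = 0.378) and that between PT D7 and PT D1 -1.76 (adjusted p = 0.470). With quiescent type B cells alone and no filter the PT D1 difference was 3.90 (SE 1.08, edgeR adjusted p = 0.242) and that between PT D7 and PT D1 -3.51 (adjusted p = 0.806). Neither subset alone passed the threshold.

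Lists of pathway genes in NSPCs held 4 STAT3 targets that rose at PT D1 of 12 tested, led by Junb, a subunit of AP-1 (2.87 log2 units), Gfap, the filament protein of astrocytes and quiescent stem cells (2.42), and Ifitm3, an antiviral membrane protein (2.41). Over all 4907 genes tested, 1.04% were called higher. The list's median was 1.69 beside 0.03 over all genes, and DESeq2 called 0 of the 12. Junb stood at 132 and 181 CPM at PT D1 and at 0 to 26.1 in the other libraries, and Fos at 62.6 and 127 against 0 to 26.1. Such genes can pass the filter on low counts through PT D1 alone. Counts and medians of these lists, at PT D1 and after it, are not free of that selection. Of 10 immediate early genes tested, 3 rose, Junb, Egr1 (2.73) and Fos (2.23), with a median of 1.39 and 1 call in DESeq2, and Junb and Fos stand in both lists. At PT D7 against PT D1, 2 of the 12 targets fell, Fos (-3.25) and Junb (-2.77) (list median -0.93), and 4 of the 10 immediate early genes fell (median -2.06), led by Ier3 (-3.54), while DESeq2 called 0 and 1. Among all genes tested 0.408% were called lower there. At PT D7 against uninjured 0 genes of either list were called by edgeR or DESeq2, with 2 targets and 0 immediate early genes at an unadjusted p under 0.05 and medians of 0.16 and -0.27.

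Other pathway genes gave no call in NSPCs. Tested were 1 kinase, 5 other inhibitors, 2 other C/EBP genes, and 0 ligands or other receptors, with 0 called in each comparison by edgeR, DESeq2 or an unadjusted p under 0.05. Clcf1, which encodes a ligand of the CNTF receptor, had 1 and 0 UMIs without injury, 5 and 17 on PT D1 and 0 and 0 on PT D7, too few for the filter. Cntfr, which encodes that receptor's binding subunit, had 4 and 14, 0 and 6, and 3 and 10. Markers of ependymal and choroid plexus cells also differed in NSPCs, between 1523 and 3784 CPM without injury, 47.4 and 90.5 on PT D1 and 70.8 and 121 on PT D7, and their part in the results was not tested.

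Whether the classes responded to a different degree was tested as the difference of their changes in a fit of both classes with a term for the library. Of the 6 members tested, 0 were called at PT D1, where 0.240% of 7514 genes were, and 0 at PT D7, where 0.0399% were. DESeq2 called 0 members in either, and an unadjusted p under 0.05 was reached by 0 members at PT D1 and by 1, Cebpb, at PT D7. At PT D1 the change in microglia minus that in NSPCs was 0.31 log2 units for Socs3 (SE 0.73, edgeR adjusted p = 0.984) and 0.78 for Stat3 (SE 0.57, edgeR adjusted p = 0.882). For Cebpb it was -1.15 at PT D1 (SE 0.88, edgeR adjusted p = 0.892) and -2.61 at PT D7 (SE 1.17, unadjusted p = 0.0257, adjusted p = 1.00). In NSPCs Cebpb had 0 and 3 UMIs without injury and 1 and 4 at PT D7, so this value rests on counts near the floor. The standard errors are wide, so these values do not show that the classes responded alike.

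Across subclusters the members fell into different patterns, given as a description without tests, since subclusters share libraries and were built from the same counts. Socs3 was highest in microglial clusters 1 (368 CPM, 95% Poisson interval 319 to 422) and 3 (352), whose intervals overlap, then in quiescent type B cells (133) and cluster 0 (58.4). Activated type B cells had 48.0, cluster 2 38.5, type C cells 22.8, cluster 4 22.3 and neuroblasts 17.4. From cluster 0 downward each interval overlaps the next. These levels pool conditions that are unequally mixed in the subclusters. At PT D1 alone, quiescent type B cells stood at 349 (interval 244 to 483), beside 368 in cluster 1 and 364 in cluster 3. Of their 36 Socs3 UMIs at PT D1, 35 came from library 2. With each cell thinned to 1000 UMIs, quiescent type B cells of PT D1 stood at 167, below that interval, beside 308 and 333 in clusters 1 and 3. With 2000 UMIs the levels were 375, 418 and 391 in the same order. The nearness of the levels thus depends on how cells are weighted.

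**Figure D5:**
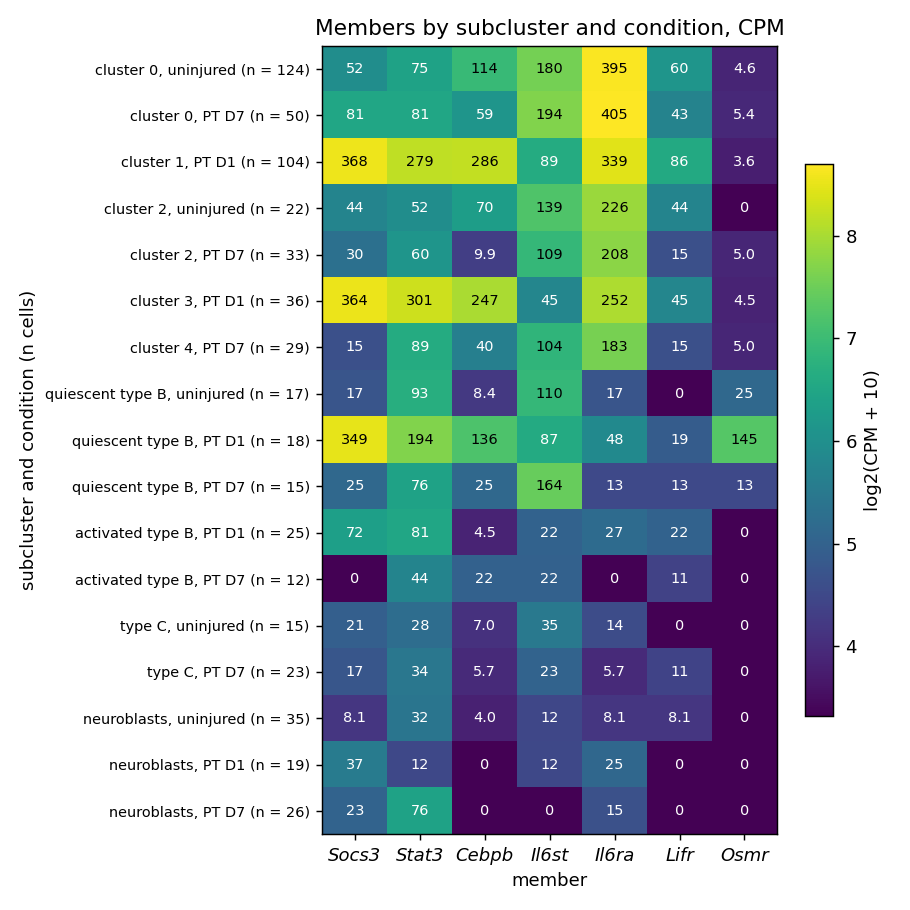
Level of 7 genes (columns) in the 17 combinations of subcluster and condition with at least 10 cells (rows, with the number of cells), printed in CPM and coloured by log2(CPM + 10). Socs3, Stat3 and Cebpb were highest in the PT D1 rows of clusters 1 and 3, and Osmr in quiescent type B cells of PT D1 (145). In quiescent type B cells of PT D1, Socs3 stood at 349, beside 368 and 364 in clusters 1 and 3 of PT D1. With each cell thinned to 1000 UMIs, which is not drawn, these levels were 167, 308 and 333.

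Clusters 1 and 3 were nearly all PT D1 cells. Cluster 1 held 64 and 40 cells of the PT D1 libraries and 0 of others, and 35 of the 41 cells of cluster 3 came from library 2 of PT D1. Within that library, cluster 1 and cluster 3 stood at 401 and 364 CPM for Socs3, 254 and 301 for Stat3, 317 and 246 for Cebpb and 89.2 and 45.5 for Il6st. Among these 4 genes the largest ratio between the clusters was that of Il6st, on 20 and 10 UMIs. Since cluster and condition go together here, what belongs to the cluster and what to the day after injury cannot be told apart.

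Cluster 0, which held 54 and 70 uninjured and 18 and 32 PT D7 cells, allows a comparison of those conditions within a cluster. Socs3 stood at 50.1 and 54.0 CPM without injury and at 96.1 and 73.3 at PT D7. Cebpb stood at 125 and 105 without injury and at 64.0 and 57.0 at PT D7. In these levels Socs3 was higher and Cebpb lower in both PT D7 libraries within this cluster, whereas over all microglia Socs3 was at 37.3 and 43.9 at PT D7. With libraries pooled, Socs3 had 34 uninjured and 15 PT D7 UMIs, with overlapping intervals (36.2 to 73.1 and 45.3 to 134 CPM). Its direction turned after thinning, to 72.6 uninjured and 60.0 at PT D7 with 1000 UMIs per cell, and 47.8 and 40.5 with 2000. The intervals of Cebpb also overlapped (89.4 to 143 and 29.6 to 106), and its direction held after thinning. In the PT D7 cells of cluster 4, Socs3 stood at 0 and 32.0.

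Il6ra ran from 396 CPM in cluster 0 over 339, 237 and 225 in clusters 1, 3 and 2 to 190 in cluster 4, and from 7.59 to 26.6 in the NSPC subclusters. Neighbours overlap in their intervals except cluster 4 and the quiescent type B cells below it. Lifr ran from 85.6 in cluster 1 and 57.2 in cluster 0 to 32.5 in cluster 2, and 4.35 to 14.4 in NSPC subclusters. Il6st was at 182 in cluster 0, followed by clusters 2 and 4 (124 and 123), quiescent type B cells (116) and clusters 1 and 3 (89.2 and 50.9), each overlapping the next in its interval, and was lowest in neuroblasts (8.69).

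Osmr was the 1 member whose highest level among the subclusters lay in NSPCs. It stood at 63.1 CPM (interval 38.0 to 98.5) in quiescent type B cells and at 2.96 to 4.77 in the microglial clusters. In neuroblasts, type C cells and activated type B cells it had 0 UMIs, with upper interval bounds of 8.02, 9.33 and 8.86. The 20 cells labelled as unknown or ependymal, which belong to no subcluster, held 11 Osmr UMIs, or 59.0 CPM (interval 29.5 to 106). At PT D1, 8 of these cells stood at 136 (interval 62.4 to 259), beside 145 in quiescent type B cells. Of the 9 UMIs behind the 136, 2 cells held 8. The level of Osmr was thus not particular to quiescent type B cells. Stat3 ran from 292 and 279 in clusters 3 and 1 over 123 in quiescent type B cells to 41.3 in neuroblasts, and Cebpb ran from 286 and 237 in clusters 1 and 3 over 101 in cluster 0 and 56.4 in quiescent type B cells to 2.17 in neuroblasts. These levels pool the conditions, and at PT D1 alone quiescent type B cells stood at 194 for Stat3 and 136 for Cebpb. Among combinations of subcluster and condition, Socs3, Stat3, Cebpb, Lifr and Osmr were highest in one of PT D1. Il6st (194) and Il6ra (405) were highest in cluster 0 of PT D7. How often all genes peak at PT D1 was not counted. Uninjured cluster 0 was close for Il6st and Il6ra, at 180 and 395, inside the PT D7 intervals (136 to 269 and 318 to 507). For Lifr, cluster 1 of PT D1 (85.6, interval 62.9 to 114) overlapped uninjured cluster 0 (60.0, interval 42.7 to 82.0).

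Genes with the profile most like each member were sought among 2749 genes over the same 17 combinations, which share libraries and differ in depth. Pearson's r of log2(CPM + 10) is a description across these combinations. For Socs3 it was highest with Arfip1 (0.863), Klf6 (0.857) and Plet1 (0.847), and for Stat3 with Pfkfb3 (0.832), Smox (0.823) and Hacd2 (0.819). Cebpb was most like Man1a (0.893), Ski (0.886) and Dram2 (0.865), and Lifr most like Man1a (0.894), Dram2 (0.869) and Lgmn (0.851). Il6ra was most like Lyn (0.971), Vsir (0.964) and Tmem86a (0.964), and Il6st most like Cst3 (0.925), Nr3c1 (0.898) and Lamp2 (0.895). For Osmr, which was 0 in most NSPC combinations, the values were 0.813 for Neat1, 0.810 for Pla2g7 and 0.804 for Camk2n1.

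In the GENCODE annotation of GRCm39 all members are protein-coding genes. Socs3 (chr11:117856905-117860898) and Stat3 (chr11:100775924-100830450) lie on the minus strand of chromosome 11, and Osmr (chr15:6843053-6904450, minus strand) and Lifr (chr15:7120095-7226970, plus strand) on chromosome 15. Il6ra lies at chr3:89771366-89820719 on the minus strand, and Il6st at chr13:112600604-112646620 and Cebpb at chr2:167530835-167532338 on the plus strand.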

How the data were processed

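UMIs were counted by the authors per gene and cell after mCEL-Seq2 (demultiplexing with bcl2fastq 2.17.1.14, genome build GRCm39, per the labels), and the deposited values are whole, unnormalized counts of UMIs. Neither aligner nor counting program is named in the sources used here. Cells below about 1000 UMIs had been removed by the authors (the 658 cells hold 1001 to 27321 UMIs), and class and subcluster were taken from their cell table, of which 15 columns were not used. Doublets had been gated out by pulse width at the sorter, and cells whose UMI total lay too many median absolute deviations from the median had been dropped by the authors as likely doublets. No further doublet filter was applied here. The 92 ERCC rows held 0 UMIs.

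For tests, UMIs were summed per class and library and edgeR 4.0.16 (R 4.3.3) fitted all 3 conditions of a class at once, with TMM normalization, filterByExpr and the quasi-likelihood F-test. The Benjamini-Hochberg adjustment ran over every gene tested. Printed levels are CPM (UMIs per 1000000 UMIs) without TMM, and fold changes come from the fit. Intervals of levels are 95% exact Poisson intervals, which cover counting error only, and 3 UMIs were taken as the limit that a count of 0 allows. The alternatives were DESeq2 1.42.0, no TMM, no filter, a minimum of 10 UMIs per library, a replicate block on the library number, a fit of only the conditions compared, leaving out each library, cells with at least 2000 UMIs, with at most 10% mitochondrial UMIs or with under 3 markers of the other class, no cluster 3 or cluster 2 cells, and cells thinned to 1000 or 2000 UMIs. Without TMM the median log2 change over all genes in microglia moved from 0.04 to -0.09 at PT D1 and from -0.01 to -0.25 at PT D7 against uninjured, and from -0.01 to -0.11 between the PT days, and in NSPCs by less than 0.1. The script was tested on simulated data.

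Libraries of equal number were checked for deviating together. The correlations of their deviations from the condition means were 0.226, 0.196 and 0.265 in microglia and 0.0961, -0.0581 and -0.0426 in NSPCs, so blocked values stand beside the microglial results that they change. The pairing comes from these correlations, as no source states what an equal number shares. Cells were assigned to libraries by the prefix of their names, which holds the library number for uninjured and PT D1 libraries. In both PT D7 libraries that number is 1, and which is library 1 or 2 was assumed from the last digit of the prefix.

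Members and lists were chosen with earlier results of these data known. All members are named, up to 3 called genes of each list per class and comparison by size of the change, and the 3 genes of highest correlation with each member that reached 20 CPM in some combination. Of the genes that this rule names, 1 is not reported here. Further genes (Clcf1, Cntfr, Osm, Il6, Plac8) were named after their values were seen.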

Additional observations from a re-analysis of the deposited data

Results flagged for a closer look

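The 20 cells that the authors' table labels as unknown or ependymal were in no comparison. In the 8 of them from PT D1, Socs3 stood at 516 CPM, Stat3 at 243 and Cebpb at 334, against 0, 36.2 and 0 in the 4 cells from uninjured mice, where the 95% Poisson intervals reach up to 66.8, 131 and 66.8. These signals were singled out because they lie outside the cells compared and above the uninjured level. They rest on few cells, since 1 cell held 16 of the 34 Socs3 UMIs and 1 cell 16 of the 22 Cebpb UMIs, while Stat3 had 16 UMIs in 7 of the 8 cells. The difference was not tested.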

How the results depend on the processing

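In microglia the count of members called was 3 at PT D1 and stayed between 1 and 4 over 17 alternatives, with 1 without library 1 of the uninjured mice (replicate 1), 0 at PT D7 in all, and 2 to 4 at PT D7 against PT D1, while counts of all genes ran from 45 to 639, 0 to 43 and 46 to 462. In these comparisons the replicate block gave 4, 0 and 4 members. In NSPCs the 1 member called at PT D1 became 0 with quiescent type B cells alone or without them (both chosen after seeing the data) and ranged from 0 to 1 as libraries were left out, and the 1 at PT D7 against PT D1 became 0 in DESeq2, with the replicate block, with only the conditions compared, with quiescent type B cells alone and without them, and ranged from 0 to 1 as libraries were left out. Counts of all genes ran from 3 to 229 there at PT D1, 0 to 18 at PT D7 and 3 to 109 between the PT days. Equal-numbered NSPC libraries did not deviate together, and the block moved the call of Socs3 between the PT days to an adjusted p of 0.0615. Socs3 in NSPCs was not tested at a minimum of 10 UMIs, without library 2 of PT D1 or without cells carrying markers of the other class, and DESeq2 gave it no adjusted p at PT D1. The cut at 10% mitochondrial UMIs was not run in NSPCs, where it leaves 2 to 15 cells a library. The difference between classes gave 0 members in all 13 alternatives.

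None of the changes whose sign turned was called. At PT D7 in microglia Socs3 was 0.05 with at most 10% mitochondrial UMIs and 0.08 without cells carrying markers of the other class. At PT D7 in NSPCs Socs3 was 0.27 in DESeq2 and 0.40 with quiescent type B cells alone, and Stat3 -0.02 without cells carrying other markers and -0.39 with quiescent cells alone. The difference between classes at PT D7 was 0.16 for Stat3 in DESeq2, 0.12 with the replicate block in place of the library and 0.09 without the library term. Causes were not tested. With a library left out, the PT D1 change in microglia ran from -0.43 to 0.23 for Il6ra and from -0.09 to 0.90 for Lifr, the PT D7 change from -0.08 to 0.88 for Stat3, and the difference between the PT days from -0.49 to 0.21 for Il6ra. In NSPCs the PT D7 change ran from -0.84 to 1.24 for Socs3 and from -1.04 to 0.57 for Stat3. The difference between classes ran at PT D1 from -0.08 to 1.28 for Socs3 and from -5.77 to 0.85 for Il6ra, and at PT D7 from -1.54 to 0.64 for Socs3, -0.51 to 1.25 for Stat3, -0.73 to 0.41 for Il6st, -4.44 to 0.55 for Il6ra and -2.77 to 2.17 for Lifr.

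Thinning each cell to 1000 UMIs left 63 of 119 subcluster levels within their counting interval, and to 2000 UMIs 90 of 119. Depth limits members with under 10 UMIs in a library, which were in microglia Osmr (6 libraries), Lifr (2) and Cebpb (1), and in NSPCs Lifr (6), Socs3, Osmr, Cebpb and Il6ra (5 each), Il6st (3) and Stat3 (2).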
